A study of Mus musculus with 6 samples.

Results

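In RAW264.7 cells, a macrophage line derived from a mouse tumor, 40 genes with reads in every DMSO library were nearly without reads after SKI-II treatment. SKI-II is a small molecule first described as a sphingosine kinase inhibitor, and the comparison asks how it changes the transcriptome of macrophages. A gene was taken when the raw counts of the 3 SKI-II libraries summed to at most 2, each DMSO library held at least 3 counts, and the 3 DMSO libraries summed to at least 15. Of the 49315 genes counted, 12773 met the DMSO limits, and 42 of these, or 0.329%, also met the SKI-II limit. Ighm and Ahr were among the 42 and were left out, so 40 genes are described. Both groups were wild-type cells sampled after 24 h, 3 libraries with 4 μg/mL SKI-II and 3 with the same volume of its solvent DMSO. Since these genes were chosen by the raw counts of both groups, their decrease is described and not tested, and it is no finding that the groups did not overlap. The labels do not say whether the libraries of a group came from separate cultures. The study's methods refer for treatment and RNA extraction to its qPCR protocol, which used biological replicates, without stating this for the sequenced samples, so the p-values given for other genes measure the spread between these libraries. In a bulk library, fewer cells of a type and less RNA per cell cannot be told apart.

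Macrophages sense their surroundings through surface receptors, present peptides on MHC class II proteins, and answer interferons with guanylate-binding proteins. They also carry transcripts at very low levels that are known mainly from other cell types, such as neurons, B cells or epithelia. A gene of this kind is seen in a library as a handful of reads, so that its loss can be given only as a limit set by counting.

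The promoters of the 3 genes with the most DMSO reads are shown because these genes had no read in any SKI-II library, and their sequences are read again below for motifs. Each is the 250 bases before the RefSeq start in GRCm38.p6, on the plus strand, with CpG sites in capitals: chr2:124089719-124089968 for Sema6d (9 CpG), chr10:56377050-56377299 for Gja1 (6 CpG) and chr12:12261927-12262176 for Fam49a (14 CpG), which RefSeq calls Cyria.
Sema6d: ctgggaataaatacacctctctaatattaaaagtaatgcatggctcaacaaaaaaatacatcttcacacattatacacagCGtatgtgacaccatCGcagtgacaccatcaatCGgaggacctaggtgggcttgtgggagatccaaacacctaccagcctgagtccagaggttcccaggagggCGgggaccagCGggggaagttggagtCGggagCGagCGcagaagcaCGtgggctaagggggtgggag
Gja1: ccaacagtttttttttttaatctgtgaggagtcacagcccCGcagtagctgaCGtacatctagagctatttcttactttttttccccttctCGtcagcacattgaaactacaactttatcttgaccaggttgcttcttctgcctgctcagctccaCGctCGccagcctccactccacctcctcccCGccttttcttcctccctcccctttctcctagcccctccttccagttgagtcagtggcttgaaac
Fam49a: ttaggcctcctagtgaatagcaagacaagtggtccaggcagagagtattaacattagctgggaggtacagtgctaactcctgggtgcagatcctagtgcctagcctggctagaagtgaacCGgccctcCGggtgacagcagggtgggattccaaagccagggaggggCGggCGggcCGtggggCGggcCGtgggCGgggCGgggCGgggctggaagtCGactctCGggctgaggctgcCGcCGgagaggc
The Gja1 sequence holds the letters TGACTCA, the site of AP-1 factors, on its minus strand close to the start. The CpG sites of Fam49a lie in the part nearer to the start, as the capitals show.

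The libraries held 12495957 to 20050677 counts, with DMSO replicate 2 the shallowest and SKI-II replicate 3 the deepest. Scaled by TMM, the SKI-II group was 1.12 times as deep as the DMSO group. Of 10 macrophage markers, all were detected in all libraries, and their summed normalized counts ran from 142236 to 207353 in DMSO and from 91029 to 129048 with SKI-II. Lyz2 made up most of the DMSO sum, with 90938, 71666 and 152065 raw counts in DMSO and 21109, 64225 and 64990 with SKI-II. By edgeR's quasi-likelihood test, Lyz2 and Mrc1 were called lower and Fcgr1 and Cd14 higher. Epithelial markers (Epcam, Cdh1, Krt8, Krt18, Krt19) were at 0 in every library, as was the B cell marker Ms4a1. T cell markers summed to at most 3.88 normalized counts in DMSO and 6.71 with SKI-II, and fibroblast markers to 11.9 to 24.0 and 9.54 to 26.1, with Lum, Thy1 and Postn at 0. B cell markers summed to 0 to 3.96 in DMSO and 4.07 to 5.59 with SKI-II. Neural and glial markers summed to 12.9 to 20.2 and 12.2 to 21.0, with Rbfox3 and Snap25 at 0. Endothelial markers summed to 304 to 432 in DMSO and 747 to 1854 with SKI-II, nearly all of it from Vwf, while Pecam1 had at most 4 counts in a library. The part of these markers in the loss of the 40 genes was not tested.

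Together the 40 genes had 1354 counts in DMSO and 44 with SKI-II, where 1516 would have been counted at an unchanged level. The DMSO libraries held 552, 394 and 408 of these counts in replicates 1, 2 and 3, and the SKI-II libraries 13, 18 and 13. The counts were low in all 3 SKI-II libraries. Among the genes, 14 had no read with SKI-II, 8 had 1 read and 18 had 2. For a gene at 0, the limit is the fold at which 3 counts over the 3 SKI-II libraries would have been seen. These limits ran from at least 5.60-fold lower for Tnfrsf17 and Ddn to at least 33.6-fold lower for Sema6d, with a median of 12.7. For a gene with 1 or 2 reads the ratio of the summed counts is given with its exact 95% (Clopper-Pearson) interval. The ratios ran from 8.40-fold lower for Gm36638 to 60.5-fold lower for Lifr, and the lower ends of their intervals from 1.95 to 10.4. The limits take the DMSO counts as they stand, while the intervals hold the counting error of both groups, and neither covers other variation between libraries. With the exact interval in place of the 3 counts, the lower end for the genes at 0 was 4.02-fold for Tnfrsf17 and Ddn and 26.8-fold for Sema6d. The lower end of that interval lay above 2-fold for 39 genes, above 5-fold for 21 and above 10-fold for 8. These numbers follow largely from the count rule, whose weakest case, 15 counts against 2, has a lower end of 1.95. Since the genes were chosen by these same counts, the intervals do not hold at 95% for the chosen genes and are no test of the loss. SKI-II replicate 3 set much of the depth: without it every limit of a gene at 0 was 1.63 times smaller, 20.6-fold for Sema6d and 3.43-fold for Tnfrsf17 and Ddn, and so was the ratio of each gene whose SKI-II reads all lay in replicates 1 and 2.

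**Figure D1:**
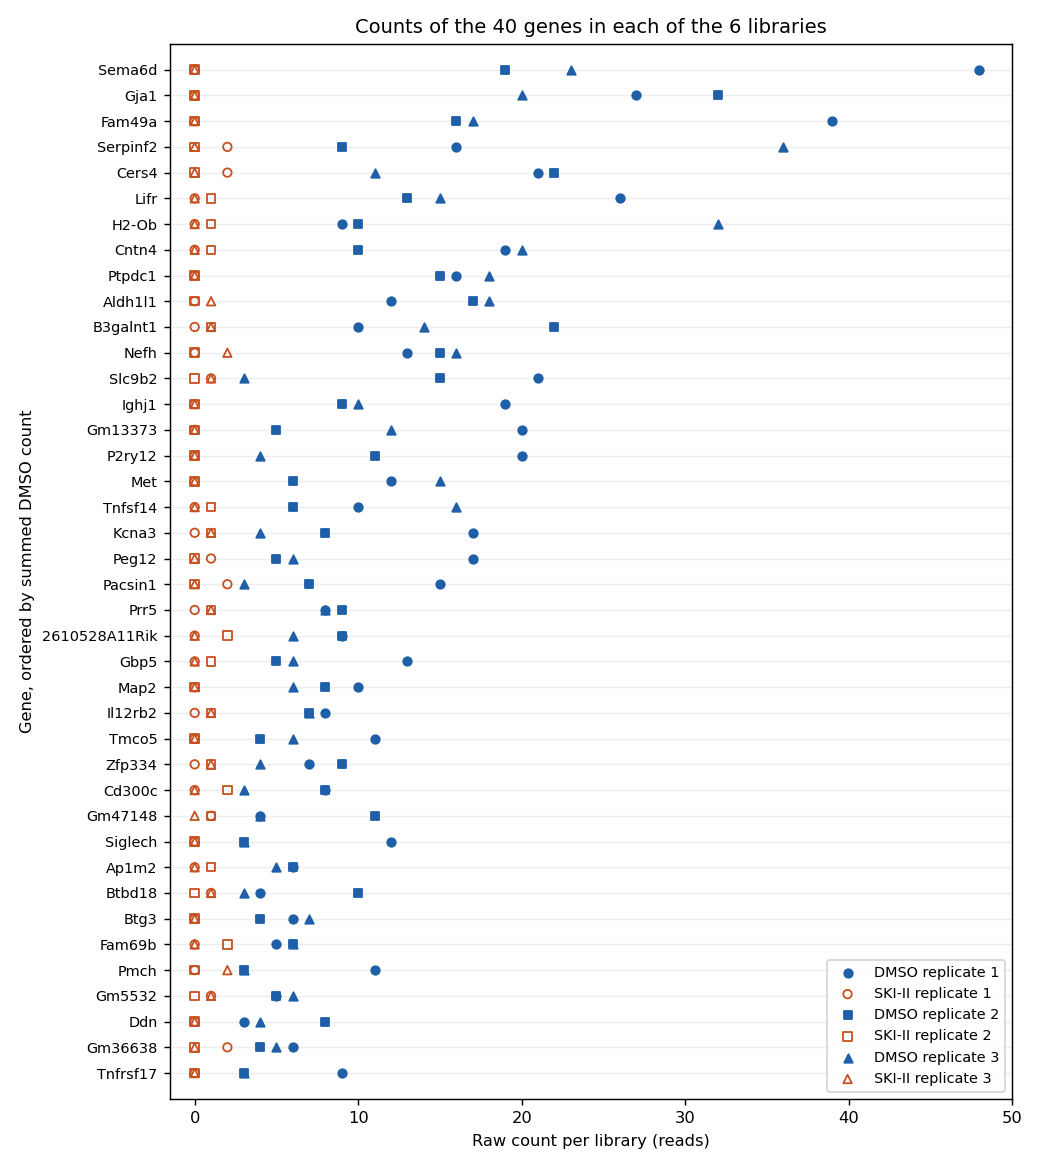
Raw counts (reads per library, horizontal axis) of the 40 genes, ordered by their summed DMSO count. Filled blue symbols are the 3 DMSO libraries and open orange symbols the 3 SKI-II libraries. No SKI-II library exceeds 2 reads for any gene, while Sema6d reaches 48 and Gja1 32 in DMSO.

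**Figure D2:**
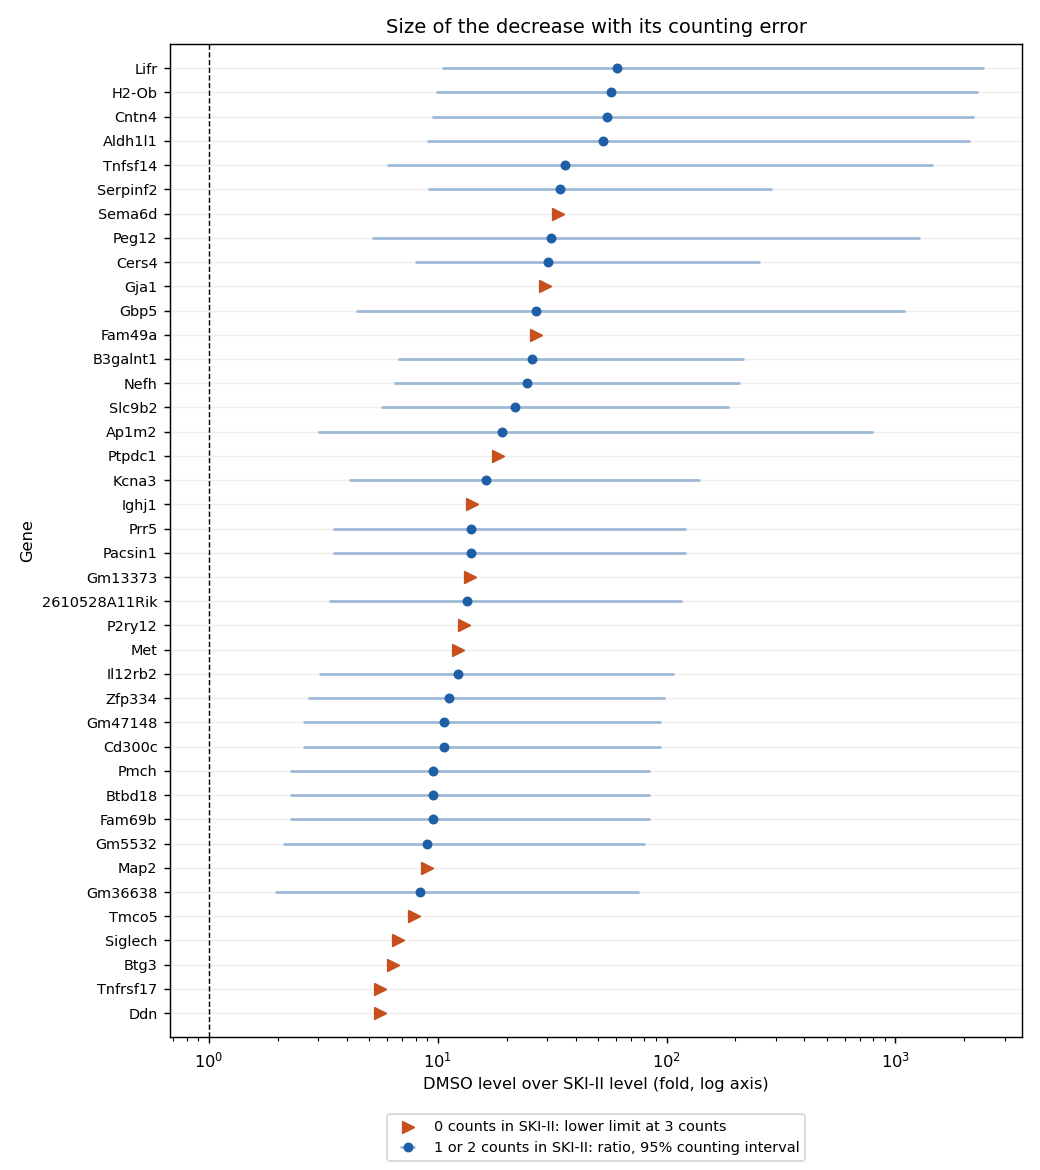
Size of the decrease on a log axis, DMSO level over SKI-II level. Triangles are lower limits for the 14 genes with 0 counts with SKI-II, from 5.60 (Tnfrsf17, Ddn) to 33.6 (Sema6d), and circles with bars are ratios and their 95% counting intervals for the 26 genes with 1 or 2 counts, from 8.40 (Gm36638) to 60.5 (Lifr).

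Surface receptors, ligands, channels and secreted proteins were the most numerous among groups assigned by hand, which have no background share, with 16 genes, 616 DMSO counts and 17 counts with SKI-II, and 6 of the genes were at 0. Sema6d encodes a transmembrane semaphorin, a guidance cue that binds plexins, and lies on chromosome 2 at chr2:124089969-124667770 (plus strand). It was counted 48, 19 and 23 times in DMSO replicates 1, 2 and 3 and in no SKI-II library, at least 33.6-fold lower. Without DMSO replicate 1 this limit fell to 24.6. Gja1, a connexin that forms gap junctions between cells (chr10:56377330-56402513, plus strand), had 27, 32 and 20 DMSO counts and none with SKI-II, at least 29.5-fold lower. Both genes stood highest in different DMSO replicates, and each had at least 19 reads in all of them. Met, the receptor of hepatocyte growth factor (chr6:17463800-17573980, plus strand), had 12, 6 and 15 counts and none with SKI-II, at least 12.3-fold lower. P2ry12, the ADP receptor of platelets and microglia (chr3:59216272-59262871, minus strand), had 20, 11 and 4 and none with SKI-II, at least 13.1-fold lower. Its DMSO counts spread widely, as those of replicate 3 were lowest, and without DMSO replicate 1 the limit fell to 8.80. Siglech, a SIGLEC family receptor of plasmacytoid dendritic cells, had 12, 3 and 3 and Tnfrsf17, the receptor BCMA of plasma cells, 9, 3 and 3, both with none in SKI-II. Their limits, at least 6.72 and 5.60-fold, rested on DMSO replicate 1, and without it both fell to 3.52.

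The other receptors and secreted proteins kept 1 or 2 reads. Lifr, the receptor of leukemia inhibitory factor, had 26, 13 and 15 DMSO counts and 1 in SKI-II replicate 2, 60.5-fold lower with an interval of 10.4 to 2432. Cntn4, a contactin that links neurons, had 19, 10 and 20 counts against 1 in SKI-II replicate 2, 54.9-fold lower (9.40 to 2210). Tnfsf14, the cytokine LIGHT, had 10, 6 and 16 against 1 in SKI-II replicate 2, 35.8-fold lower (5.98 to 1459). A single read decides these values: without SKI-II replicate 2 there is no read left, and the limits become 13.5, 12.2 and 7.99-fold. Serpinf2, the inhibitor of plasmin, had 16, 9 and 36 DMSO counts and 2 in SKI-II replicate 1, 34.1-fold lower (9.06 to 288). Its level rested on DMSO replicate 3, and the ratio was 21.8 without that library, 20.9 without SKI-II replicate 3 and at least 16.3 without SKI-II replicate 1. Slc9b2, a sodium/hydrogen exchanger, varied most among the DMSO libraries, with 21, 15 and 3 counts, a 6.86-fold range after scaling, and 1 read each in SKI-II replicates 1 and 3, 21.8-fold lower (5.65 to 187). Kcna3, a voltage-gated potassium channel of lymphocytes and macrophages, had 17, 8 and 4 against 1 each in SKI-II replicates 2 and 3, 16.2-fold lower (4.11 to 140) and 10.6 without DMSO replicate 1. Il12rb2, the signaling chain of the receptor for interleukin-12, had 8, 7 and 7 against 1 each in SKI-II replicates 2 and 3, 12.3-fold lower (3.03 to 108). Its low values were the most even of the receptors in DMSO. 2610528A11Rik, which encodes the secreted ligand of Gpr15, had 9, 9 and 6 and 2 reads in SKI-II replicate 2, 13.4-fold lower (3.34 to 117), or at least 5.99 without that library. Cd300c, an activating receptor of myeloid cells, had 8, 8 and 3 and 2 reads in SKI-II replicate 2, 10.6-fold lower (2.57 to 94.2), or at least 4.75 without it. Pmch, the precursor of melanin-concentrating hormone, had 11, 3 and 3 and 2 reads in SKI-II replicate 3, 9.52-fold lower (2.26 to 84.9), and 5.28 without DMSO replicate 1 or at least 3.89 without SKI-II replicate 3.

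Antigen presentation, the interferon response and the antibody locus gave 3 genes with 113 DMSO counts and 2 with SKI-II. H2-Ob encodes the beta chain of H2-O, which restrains peptide loading onto MHC class II (chr17:34238903-34254414, plus strand). It had 9, 10 and 32 counts in DMSO and 1 in SKI-II replicate 2, 57.1-fold lower (9.80 to 2299). The high count of DMSO replicate 3 carries part of that value, which was 33.1 without that library, 35.0 without SKI-II replicate 3 and at least 12.7 without SKI-II replicate 2. Gbp5, an interferon-induced GTPase, had 13, 5 and 6 against 1 in SKI-II replicate 2, 26.9-fold lower (4.38 to 1105), or at least 5.99 without it. Ighj1, a joining segment of the antibody heavy chain (chr12:113429781-113429833, minus strand, an exon of 53 bases), had 19, 9 and 10 and none with SKI-II, at least 14.2-fold lower. It lies in the same locus as Ighm, which was counted 284, 222 and 186 times in DMSO and 1, 1 and 0 times with SKI-II.

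Of the 4 enzymes, with 196 DMSO counts and 5 with SKI-II, Ptpdc1 had none left. This phosphatase of the protein tyrosine phosphatase family (chr13:48577872-48625664, minus strand) had 16, 15 and 18 counts, at least 18.3-fold lower and among the most even of all the genes in DMSO. Cers4, a ceramide synthase (chr8:4493026-4531680, plus strand), had 21, 22 and 11 against 2 in SKI-II replicate 1, 30.2-fold lower (7.97 to 256), or at least 14.5 without that library. Aldh1l1, a dehydrogenase of 10-formyltetrahydrofolate, had 12, 17 and 18 against 1 in SKI-II replicate 3, 52.6-fold lower (8.99 to 2122), or at least 10.7 without it. B3galnt1, the synthase of globoside, had 10, 22 and 14 against 1 each in SKI-II replicates 2 and 3, 25.8-fold lower (6.73 to 219).

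Cytoskeleton and membrane traffic gave 6 genes with 197 DMSO counts and 5 with SKI-II. Fam49a, which encodes a RAC1-binding regulator of actin (chr12:12262139-12380965, plus strand), had 39, 16 and 17 and none with SKI-II, at least 26.9-fold lower. Without DMSO replicate 1 this limit fell to 19.4. Map2, a microtubule-associated protein of neurons, had 10, 8 and 6 and none, at least 8.96-fold lower. Ddn, which encodes dendrin of kidney podocytes and neurons, had 3, 8 and 4 and none, at least 5.60-fold lower, or 3.63 without DMSO replicate 2. All 3 were at 0 in every SKI-II library, at very different DMSO levels. Nefh, a heavy neurofilament chain, had 13, 15 and 16 against 2 in SKI-II replicate 3, 24.6-fold lower (6.43 to 209.7), or at least 10.1 without that library. Pacsin1, which bends membranes in endocytosis, had 15, 7 and 3 against 2 in SKI-II replicate 1, 14.0-fold lower (3.49 to 122), 8.80 without DMSO replicate 1 and at least 6.70 without SKI-II replicate 1. Ap1m2, a medium chain of the AP-1 clathrin adaptor known from epithelia, had 6, 6 and 5 against 1 in SKI-II replicate 2, 19.0-fold lower (2.98 to 795), or at least 4.25 without it.

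Growth control, nuclear and other proteins gave 7 genes with 145 DMSO counts and 9 with SKI-II. Peg12, an imprinted gene of the FRAT family that binds GSK3, had 17, 5 and 6 against 1 in SKI-II replicate 1, 31.3-fold lower (5.18 to 1282), 19.4 without DMSO replicate 1 and at least 7.50 without SKI-II replicate 1. Prr5, a component of mTORC2, had 8, 9 and 8 against 1 each in SKI-II replicates 2 and 3, 14.0-fold lower (3.49 to 122). Btg3, an antiproliferative protein of the BTG/TOB family (chr16:78332637-78377192, minus strand), had 6, 4 and 7 and none, at least 6.34-fold lower. These regulators had at most 17 reads in any DMSO library. Tmco5, a coiled-coil membrane protein, had 11, 4 and 6 and none, at least 7.84-fold lower. Zfp334, a zinc finger protein, had 7, 9 and 4 against 1 each in SKI-II replicates 2 and 3, 11.2-fold lower (2.72 to 98.8). Btbd18, a nuclear BTB-domain protein of male germ cells, had 4, 10 and 3 against 1 each in SKI-II replicates 1 and 3, 9.52-fold lower (2.26 to 84.9), or 5.44 without DMSO replicate 2. For Fam69b, a kinase-like protein of the endoplasmic reticulum that RefSeq calls Dipk1b, the counts were 5, 6 and 6 against 2 in SKI-II replicate 2, 9.52-fold lower (2.26 to 84.9), or at least 4.25 without that library.

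Non-coding and predicted genes were the remaining 4, with 87 DMSO counts and 6 with SKI-II. Gm13373, a lincRNA (chr2:28315016-28324050, minus strand), had 20, 5 and 12 and none, at least 13.8-fold lower, or 9.97 without DMSO replicate 1. Gm5532, also a lincRNA, had 5, 5 and 6 against 1 each in SKI-II replicates 1 and 3, 8.96-fold lower (2.11 to 80.3). Gm47148 had 4, 11 and 4 against 1 each in SKI-II replicates 1 and 2, 10.6-fold lower (2.57 to 94.2), or 6.22 without DMSO replicate 2, and Gm36638 had 6, 4 and 5 against 2 in SKI-II replicate 1, 8.40-fold lower (1.95 to 75.7), or at least 4.02 without it. These last 2 lie inside other genes, Gm47148 in Kif15 and Gm36638 in Pik3r1, on the same strand. Reads of the hosts' unspliced RNA cannot be told apart from theirs. Kif15 had 1210, 806 and 620 counts in DMSO and 143, 191 and 226 with SKI-II, and Pik3r1 802, 538 and 782 against 523, 568 and 487.

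In all, 14 of the genes overlap another gene of the annotation, 8 of them in exons on the opposite strand and 2 on the same strand, and the strand setting of the counting is not given in the sources used here. Exons of Il12rb2 share 1519 bases with Serbp1, which had 13210, 11074 and 15089 counts in DMSO and 5942, 9213 and 12160 with SKI-II. Exons of Pmch share 435 bases with Parpbp, at 462, 289 and 288 against 75, 125 and 135, and those of Ddn share 177 bases with B130046B21Rik, at 43, 34 and 19 against 21, 36 and 36. The values of Il12rb2, Pmch and Ddn are therefore uncertain. Exons of P2ry12 share 9 bases with Med12l, which had at most 5 counts in a library, and the partners not named here or above had at most 2 counts in a library.

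All 40 genes had low levels in DMSO, with 15 to 90 counts in sum and a median of 26.5. Of the 850 genes with 15 to 29 DMSO counts, 22 were among the 40, or 2.59%. The share was 1.64% at 30 to 59 counts (14 of 855) and 0.738% at 60 to 99 (4 of 542), and no gene with 100 or more was included once Ighm was left out. The limit of 2 reads favors low genes by itself. A SKI-II over DMSO ratio below 0.1, which counting error also reaches more easily at low counts, was seen in 2.12%, 2.34% and 1.48% of these levels, in 0.266% of the 3389 genes from 100 to under 1000 counts, and in 0.042% of the 7137 with 1000 or more. The reverse limits, at most 2 counts in DMSO with the same minimum in SKI-II, were met by 111 of 13207 genes, or 0.84%.

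**Figure D3:**
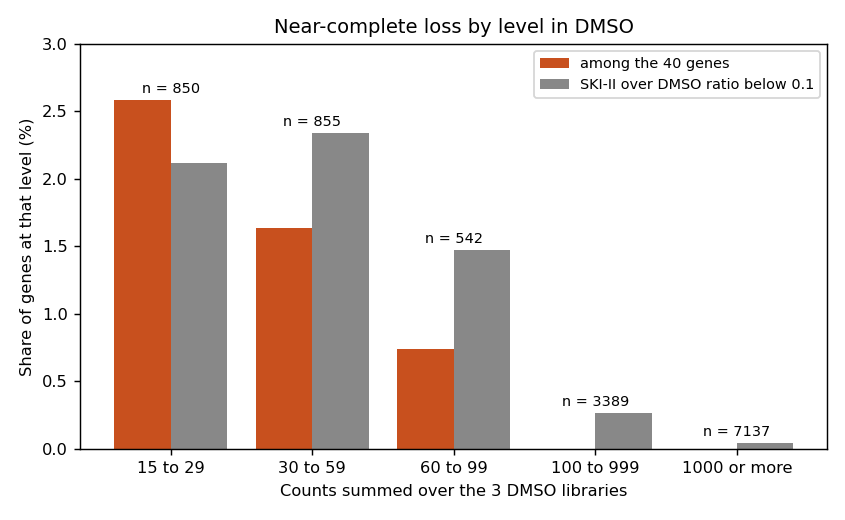
Share of genes at each DMSO level (counts summed over the 3 DMSO libraries) that were among the 40 (orange) or had a SKI-II over DMSO ratio below 0.1 (gray), in percent. The share among the 40 falls from 2.59% at 15 to 29 counts to 0.738% at 60 to 99, and the gray bars are at 0.266% and 0.042% in the highest levels.

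Just inside the DMSO limit were Gm5532 (16 DMSO counts) and Ddn, Gm36638 and Tnfrsf17 (15 each). At the SKI-II limit of 2 counts stood 18 of the 40, of which Serpinf2, Cers4, B3galnt1, Nefh and Slc9b2 had the most DMSO counts (61, 54, 46, 44 and 39). Just outside were 11 genes with 3 SKI-II counts, among them AI504432 (17, 12 and 10 counts in DMSO, 1, 2 and 0 with SKI-II), Sparcl1 (11, 6 and 22 against 0, 0 and 3), Runx3 (10, 14 and 8 against 0, 2 and 1), Hsf2bp and Dnah7c. Another 3 genes, Mrc2, Gm17203 and Gm14328, had 2 counts in their lowest DMSO library and 1 over SKI-II. No gene missed the DMSO sum by a single count.

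Of the 40 genes, 35 (87.5%) were protein coding, against 48.4% of the 2114 other genes up to the same DMSO count. Their median exon length was 3451 bases against 2172, and they had a median of 6 exon blocks against 3. Per length, the median DMSO level was 0.178 RPKM, against 6.27 RPKM for all genes that met the DMSO limits. Map2 was lowest at 0.0321 RPKM, and Ighj1, with 53 bases, was highest at 15.8 RPKM. The genes lay on 15 chromosomes, 6 on chromosome 2 and 5 on chromosome 3. Symbol patterns for gene classes took 17 of the 40, with 5 predicted or RIKEN genes (12.5%, against 12.7% of genes meeting the DMSO limits) and 2 leukocyte surface receptors, Cd300c and Siglech (5%, against 0.681%). The background shares for classes cover all genes meeting the DMSO limits, most of them at higher levels than the 40. No excess is read from 2 genes. The patterns for cell cycle and replication genes and for histones took none of the 40, and 1.17% and 0.243% of genes meeting the DMSO limits, so that fewer than 1 would be counted at those shares. The symbol patterns are incomplete: that for kinases, phosphatases and GTPase regulators took neither the phosphatase Ptpdc1 nor the receptor kinase Met. The DMSO libraries differed for these genes about as for others of their level: the highest scaled library was a median of 2.12 times the lowest, against 2.00. DMSO replicates 1, 2 and 3 were highest for 16, 18 and 6 of the 40 (40%, 45% and 15%), against 36.6%, 37.6% and 25.8% of the others.

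RefSeq promoter windows, 250 bases before to 50 after the start, matched 35 of the 40 genes, 9 of them at a start over 1000 bases from the one in the GENCODE annotation, such as Lifr and Cntn4. The median CpG ratio (observed over expected) was 0.514, against 0.549 for 1022 other genes of that level, 0.778 for 9405 other genes meeting the DMSO limits, and 0.529 for 20110 genes with a window. The median GC content was 55.7%, against 57.0%, 60.7% and 55.3% in the same sets. The letters TGACTCA, searched on both strands, stood in the windows of Gja1, Met, Pmch and Tnfsf14 (4 of 35, 11.4%), against 4.70%, 3.42% and 4.70%. CACGTG stood in 5 (14.3%, against 6.65%, 10.4% and 7.73%), among them Sema6d and Met. TATAAA stood in 4 (11.4%, against 9.98%, 6.86% and 13.2%) and TTTGAA in 5 (14.3%, against 15.0%, 12.1% and 16.7%). TTTCCCGC stood in 1, that of Kcna3 (2.86%, against 0.587%, 2.21% and 1.35%). TTTGGCGC was in none of the 35, against 0.489%, 1.06% and 0.651%, and GAGGAAGT in none, against 3.42%, 3.35% and 3.26%. Such matches describe letters and not bound sites.

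Relatives and partners of the 40 genes are not part of the count rule, so their own change could be tested. With edgeR's quasi-likelihood test over 12274 genes, at a log2 fold change beyond 1 and a Benjamini-Hochberg adjusted p below 0.05, 7.44% of all tested genes were lower and 8.28% higher with SKI-II. Of 114 tested relatives, 10 (8.77%) were lower and 20 (17.5%) higher, and their median log2 fold change was 0.09 against 0.00 for all genes. Without SKI-II replicate 1, 6 relatives were called lower. The other 84 relatives passed neither threshold pair.

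**Figure D4:**
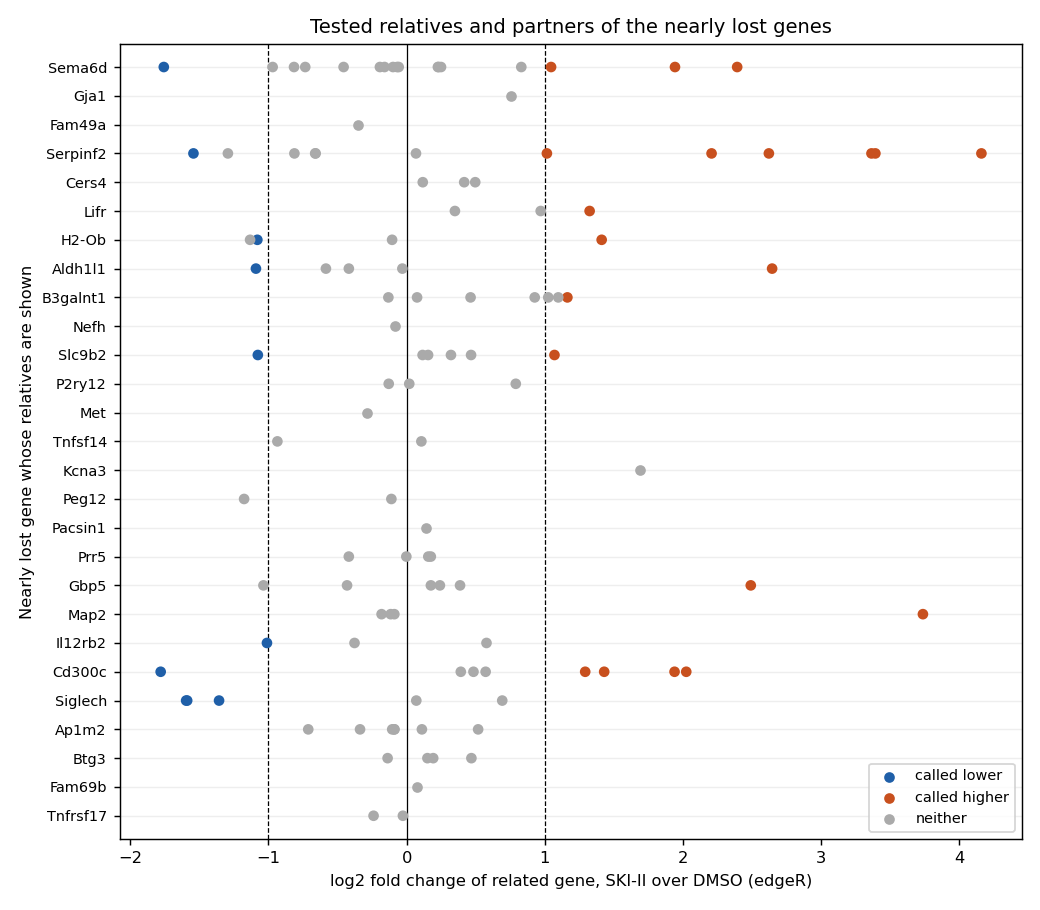
log2 fold change (SKI-II over DMSO, edgeR) of the tested relatives and partners of each nearly lost gene, with dashed lines at -1 and 1. Blue points were called lower, orange points higher and gray points neither, 10, 20 and 84 of 114 genes.

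Among semaphorins, plexins and neuropilins, 17 were tested, with 1 lower and 3 higher. Plxnb2, the plexin with the most reads, had 24866 ± 2525 normalized counts in DMSO and 14135 ± 242 with SKI-II (SD, n = 3 libraries each), a log2 fold change of -0.81 ± 0.14 (SE) that is below the fold threshold (edgeR, adjusted p = 0.00166). Nrp2 and Plxnd1 followed at -0.73 and -0.46. Sema4g fell by 1.76 on the log2 scale, while Plxna1, the plexin that binds Sema6d, rose by 1.05, Plxnc1 by 2.39 and Nrp1 by 1.94. Of 22 connexins and pannexins, 10 had no read in any library and Panx1 was the 1 tested, at 0.76 without a call.

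Serpins gave 12 tested genes, with 1 lower and 6 higher. Serpinb6a, an intracellular serpin, rose from 1916 ± 465 to 3872 ± 148 normalized counts (SD, n = 3 libraries each), a log2 fold change of 1.01 ± 0.16 (SE; edgeR, adjusted p = 0.00116), while Serpinb8 stood at -0.66. In the CD300 family, 8 were tested, with 1 lower and 4 higher: Cd300a rose by 1.94 and Cd300ld by 1.29, and Cd300lb was at 0.39. Among SIGLEC genes and their adaptor, 3 of 5 tested were lower and none higher. Cd33 fell by 1.36 on the log2 scale. Siglec1, sialoadhesin, fell by 1.60 and Siglec15 fell by 1.59, and Tyrobp, the adaptor that signals for Siglech, was at 0.07. The difference between the CD300 and SIGLEC families was not tested.

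Cytokine and antigen pathways gave calls in both directions. Lif, the ligand of Lifr, rose by 1.32 (75.8 ± 33.1 to 190 ± 41.4 normalized counts, edgeR, adjusted p = 0.00994), with the shared receptor chain Il6st at 0.35 and Osm at 0.97. Il12rb1, the partner of Il12rb2, fell by 1.01 on the log2 scale, with Tyk2 at -0.38 and Jak2 at 0.58. Cd74, the invariant chain of MHC class II, rose by 1.41 and H2-DMa, which H2-O restrains, fell by 1.08, with H2-DMb2 at -0.11. Gbp8 rose by 2.49 with a wide spread (85.4 ± 79.6 to 480 ± 279 normalized counts, edgeR, adjusted p = 0.0167). Gbp9 was at 0.24 and Gbp3 at -1.04, neither called. The receptors of LIGHT, Ltbr and Tnfrsf14, were at 0.11 and -0.94 without a call, and the ligands of Tnfrsf17, Tnfsf13b and Tnfsf13, at -0.24 and -0.03. Cbl, an adaptor of Met, was at -0.29.

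Enzyme relatives showed calls in the folate group: Mthfd1 fell by 1.09 on the log2 scale and Aldh1l2, the mitochondrial counterpart of Aldh1l1, rose by 2.64 (1871 ± 330 to 11693 ± 836 normalized counts, edgeR, adjusted p = 7.89e-06), with Mthfd2 at -0.58 and Mthfd1l at -0.03. The ceramide synthases Cers2, Cers6 and Cers5 were at 0.42, 0.12 and 0.50 without a call. B3galnt2 rose by 1.16, with B3gnt3 at 0.93 and B3gnt2 at -0.13. Among sodium/hydrogen exchangers, Slc9a5 fell by 1.08 and Slc9a9 rose by 1.07. P2ry6, P2ry10b and P2ry2 were at -0.13, 0.02 and 0.79 without a call.

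Partners of the cytoskeletal and growth genes gave 1 call. Map1b rose by 3.74 (8.60 ± 7.05 to 119 ± 48.0 normalized counts, edgeR, adjusted p = 0.000545), while Map4, Map1s and Map1a were at -0.12, -0.18 and -0.09. The AP-1 adaptor genes gave 7 tests and no call, with Ap1s1 at 0.52, Ap1g1 at -0.34 and Ap1b1 at -0.09. Mtor, Mapkap1 and Rictor, partners of Prr5, were at -0.42, 0.00 and 0.18. Btg1, Tob2 and Tob1 were at 0.19, -0.14 and 0.47, Frat2 and Frat1 at -1.18 and -0.11, Fam49b at -0.35, Fam69a at 0.07, Pacsin2 at 0.14 and Vim at -0.08, none of them called. Kcna7 was the 1 Kcna channel tested, at 1.69 without a call, and the other 6 relatives of Kcna3 had no read in any library. No other contactin was tested, and 4 of the 5 relatives of Cntn4 had no read.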

How the data were processed

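RNA-seq libraries of RAW264.7 cells were analysed, 3 per group, grouped by the sample titles. Poly(A) RNA was selected with oligo(dT) beads. Per the submitters' processing notes, which name Trimmomatic 0.36, STAR 2.5.2b, featureCounts of Subread 1.5.2 and DESeq2, the authors trimmed, mapped and counted reads, and the deposited table holds raw counts per Ensembl gene without normalization. Which build, annotation and strand setting the counting used is not given in the sources used here.

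Names and positions came from GENCODE M21 (GRCm38), which placed 49056 of 49315 genes. Normalized counts were brought to the mean TMM-scaled library size. Ratios of summed counts used the same sizes. Exact intervals cover counting error only, and the limit of 3 counts that of the SKI-II counts. Non-members were tested with edgeR 4.0.16 in R 4.3.3 (quasi-likelihood test, filter with a minimum count of 10 and total of 15, Benjamini-Hochberg adjustment, adjusted p below 0.05, log2 fold change beyond 1), tested on simulated data. Of the 40 genes, 11 passed that filter. Alternatives used DESeq2 1.42.0. Libraries of a group differed by more than sampling noise (chi-square per degree of freedom 15.4 to 58.1). The members, families, markers and motifs were chosen with earlier results of these data known. Every member is named with its counts per library, beyond the planned rule (the 25 with most DMSO counts, the first of each class and those with 1 or 2 SKI-II counts), and relatives are named as the up to 3 with the highest DMSO level per family; further relatives that were called are named after their values were seen. Some relatives and markers that this rule would name are not reported here.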

Additional observations from a re-analysis of the deposited data

How the results depend on the processing

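Of the 40 genes, 14 remained at 0 counts over SKI-II, while 92 genes met a limit of 5 counts and 18 a minimum of 30 DMSO counts. With no minimum per library 48 genes met the limits, and with scaled counts 28, all of them among the 40. Leaving out 1 library gave 22 genes (without DMSO replicate 1, 21 shared with the 40) to 74 (without SKI-II replicate 3, all 40 shared). It also gave 63 without SKI-II replicate 2. Fewer libraries under the same limits on sums make the DMSO minimum harder and the SKI-II limit easier to meet.

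Relatives called lower numbered 6 to 11 and relatives called higher 18 to 22 when 1 library was left out. Over all tested genes, 913 were lower and 1016 higher, 835 to 1044 and 819 to 1128 with 1 library left out, and 939 and 1083 with DESeq2. Deviations from the group mean correlated by 0.246, 0.00994 and 0.458 between the DMSO and SKI-II libraries of replicates 1, 2 and 3. Only those of replicate 3 matched each other best, so a pairing by replicate number was not shown. Under a replicate block, 949 genes were lower and 1087 higher, and 10 and 21 of the relatives. Using library totals in place of TMM moved no limit by a visible amount, as the lowest stayed at 5.60. Depth limits the decrease that can be shown to the values given for each gene.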

Other observations

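Of 80 tested genes that lie next to the nearly lost genes on the chromosome, at a median distance of 82336 bases, 7 (8.75%) were lower and 7 (8.75%) higher with SKI-II by edgeR's quasi-likelihood test, against 7.44% and 8.28% of all tested genes, with a median log2 fold change of -0.01. Among those called, chosen after their values were seen, Selenoh, a nuclear selenoprotein gene 435 bases from Btbd18, fell by 2.29 on the log2 scale. Igf1, a growth factor gene 154030 bases before Pmch, fell by 2.52. Bdh2, a dehydrogenase 3274 bases from Slc9b2, rose by 1.67, and Slc41a3, a transporter 4522 bases from Aldh1l1, by 1.66.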
